A study of Mus musculus with 6 samples.

Results

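Slc22 genes encode membrane carriers of organic ions, and 9 of them (Slc22a2, Slc22a4, Slc22a5, Slc22a6, Slc22a7, Slc22a8, Slc22a12, Slc22a28 and Slc22a30) were followed here. The members were chosen by name, and all 9 of 9 had a value among the 12125 genes listed for the sorted kidney cells. The study asked what loss of the telomere protein TRF1 does in kidney fibroblasts, and 6 libraries were sequenced, 3 from Trf1+/+ and 3 from Trf1flox/flox mice, each from 500 sorted cells. Mice of both genotypes carried Col1a2-CreERT2, a tamoxifen-inducible Cre recombinase under the promoter of the collagen gene Col1a2, and an allele of the Katushka fluorescent protein (KFP) that Cre switches on by removing a stop cassette. Tamoxifen was injected 3 times per week over 8 weeks into males and females that were 6 to 8 weeks old at the start. Cells were sorted by the integrin CD29 and by KFP, and the study's methods do not say whether the sequenced cells carried both. Replicates are separate mice, numbered here in accession order within a genotype, so equal numbers pair no mice.

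Organic anion transporters take up drugs, toxins and metabolites from the blood across the basolateral membrane of proximal tubule cells in exchange for dicarboxylates, or move urate across the apical membrane. Organic cation transporters carry amines such as creatinine and metformin, and the related OCTN proteins carry carnitine or ergothioneine. In the kidney these genes are known as genes of the proximal tubule epithelium, where transcription factors of the HNF1 and HNF4 families bind many of their promoters.

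Promoter sequences were compared in a short window around the annotated start, to see which members are near copies there. In the RefSeq annotation of GRCm38.p6, 8 of the 9 members were matched, all but Slc22a7, with sequence covering 250 bases before to 50 bases after the annotated start. The promoters of Slc22a28 and Slc22a30 are shown because they are nearly the same sequence. They lie on the minus strand at chr19:8131933-8132232 and chr19:8405056-8405355. Both are printed 5′ to 3′, with capitals on the letters that differ in the alignment of the pair, including the 6 unpaired bases at one end of each.
Slc22a28: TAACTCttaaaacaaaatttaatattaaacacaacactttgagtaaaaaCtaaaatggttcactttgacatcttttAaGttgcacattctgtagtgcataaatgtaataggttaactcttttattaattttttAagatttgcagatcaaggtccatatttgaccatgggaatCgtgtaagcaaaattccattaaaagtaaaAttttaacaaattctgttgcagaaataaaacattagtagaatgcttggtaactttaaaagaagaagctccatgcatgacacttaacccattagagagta
Slc22a30: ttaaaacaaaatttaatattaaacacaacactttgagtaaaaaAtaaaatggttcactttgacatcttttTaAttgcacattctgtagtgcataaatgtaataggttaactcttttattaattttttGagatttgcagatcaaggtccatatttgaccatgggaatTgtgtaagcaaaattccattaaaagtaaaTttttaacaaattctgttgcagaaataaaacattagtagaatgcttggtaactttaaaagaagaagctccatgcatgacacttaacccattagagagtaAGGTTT
The windows are offset by 6 bases, and 294 bases align without a gap, of which 6 differ. Counting the unpaired ends, 94.1% of alignment columns were identical, whereas the next most similar pair, Slc22a8 and Slc22a6, reached 53.3%. Promoters of unrelated genes were not aligned, so a value at that level shows no relation between 2 members. The promoters of Slc22a6 and Slc22a8, neighbours on the plus strand at chr19:8617746-8618045 and chr19:8592932-8593231, are shown because they were the only promoters of the 8 with the letters GTTAAT, the core letters bound by HNF1 factors. Capitals mark GTTAAT and CAAAG, the core letters bound by HNF4 factors, on either strand.
Slc22a6: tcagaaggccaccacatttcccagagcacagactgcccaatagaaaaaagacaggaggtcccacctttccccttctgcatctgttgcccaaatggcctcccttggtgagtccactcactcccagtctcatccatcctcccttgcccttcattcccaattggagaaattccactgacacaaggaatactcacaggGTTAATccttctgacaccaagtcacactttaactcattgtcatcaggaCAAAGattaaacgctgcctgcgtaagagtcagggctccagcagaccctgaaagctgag
Slc22a8: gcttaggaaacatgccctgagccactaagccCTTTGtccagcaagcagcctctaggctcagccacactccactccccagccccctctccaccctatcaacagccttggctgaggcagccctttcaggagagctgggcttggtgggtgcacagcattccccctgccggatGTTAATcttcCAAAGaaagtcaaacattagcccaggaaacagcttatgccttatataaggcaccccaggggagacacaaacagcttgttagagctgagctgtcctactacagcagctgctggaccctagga
GTTAAT began 56 bases (position -56) before the start of Slc22a6 and at position -81 of Slc22a8. It was found on either strand in 2 of 8 member promoters and in 7.10% of all 32851 promoters of this length. CAAAG was found in 6 of 8 member promoters against 53.9% of all, CCAAT in 2 of 8 against 37.4%, and TATAAA in 0 of 8 against 13.6%. CCAAT on one strand overlapped CCAAT on the other at 1 place in Slc22a6, and no other matches overlapped. Such matches describe letters in a window, not binding.

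Terf1, which encodes TRF1 and is the gene deleted in the Trf1flox/flox mice, was at 0.891, 253 and 235 normalized counts in Trf1+/+ replicates 1, 2 and 3 as labelled. In Trf1flox/flox replicates 1, 2 and 3 it had 110.0, 7.65 and 12.4. The library labelled Trf1+/+ replicate 1 thus held 1 read of the targeted gene, which goes against its label, and it keeps that label here. The library labelled Trf1flox/flox replicate 1 stood above the other 2 of its genotype and below Trf1+/+ replicates 2 and 3, so it does not show the loss of the gene as they do, and values without it are given where they differ. The library labelled Trf1+/+ replicate 1 also had 8967 genes above 0, the fewest of the 6. Its median was 13.4 normalized counts against 118 to 148 in the others. The listed genes held 10263382 to 12248797 reads per library, and 1 read was worth 0.689 to 1.09 normalized counts. A gene with at most 3 reads was taken as being at the floor, which covers counting error only, because amplified reads without molecular identifiers are not independent molecules. Of the members, 3 were at the floor in the library labelled Trf1+/+ replicate 1 (Slc22a4, Slc22a7 and Slc22a8), 1 in Trf1flox/flox replicate 1 (Slc22a30) and 1 in Trf1flox/flox replicate 2 (Slc22a7).

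The cells are labelled fibroblasts, and the listed markers were set against that label. Of 14 fibroblast markers 3 were listed (Col1a2, Dcn and Fn1), and their summed normalized count was 1.66 to 105 in Trf1+/+ and 15.5 to 102 in Trf1flox/flox libraries. Col1a2, the gene whose promoter drives the Cre, was at or below 1.78 normalized counts in every library and at 0 in Trf1flox/flox replicate 3. The highest of the 3, Dcn, had 0, 0 and 93.6 normalized counts in Trf1+/+ replicates 1, 2 and 3 and 0.859, 97.3 and 39.3 in Trf1flox/flox replicates 1, 2 and 3. Col1a1, Pdgfra and Pdgfrb were among the 14 markers looked for and were not among the genes listed. All 17 of 17 proximal tubule markers were listed, with sums of 33690 to 142087 in Trf1+/+ and 37304 to 177013 in Trf1flox/flox libraries, led by Kap, the kidney androgen-regulated protein, at 71943, 8808 and 25835 and then 5058, 28856 and 68816. The 6 of 6 markers of the loop of Henle and distal tubule summed to 78775 to 127309 and 58724 to 148137, led by Umod, the uromodulin gene, at 33502, 51495 and 27793 and then 80777, 35062 and 21896. The marker levels thus go against the label of these cells, and the 9 members were read in libraries rich in RNA of tubule epithelium. In such bulk libraries fewer cells of a type and less RNA per cell cannot be told apart.

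**Figure D1:**
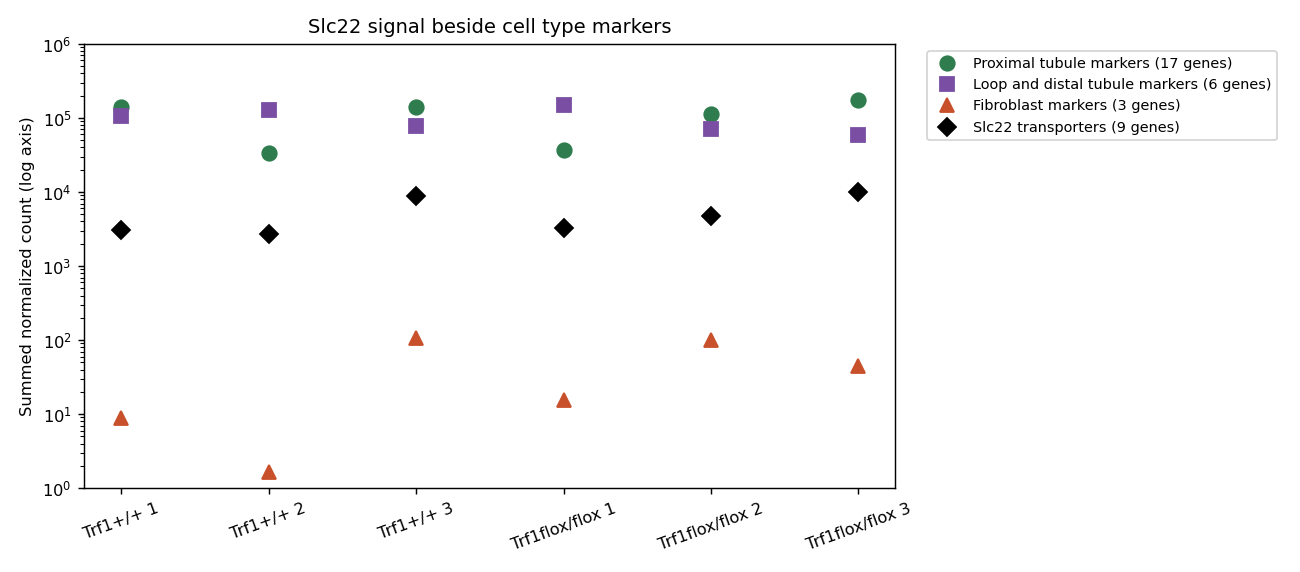
Summed normalized counts (log axis) of the 9 Slc22 genes and of 3 marker lists in each of the 6 libraries, 1 point per list and library. The fibroblast sums stay at or below 105, under the Slc22 sums of 2692 to 9874 in every library.

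Together the 9 genes reached 3031, 2692 and 8751 normalized counts in Trf1+/+ replicates 1, 2 and 3. The sums were 3276, 4779 and 9874 in Trf1flox/flox replicates 1, 2 and 3. Replicate 3 was the highest of either genotype, and the genotypes overlapped. Set against the proximal tubule sum, the members stood at 2.13%, 7.99% and 6.19% in Trf1+/+ and at 8.78%, 4.17% and 5.58% in Trf1flox/flox libraries. The lowest of these shares was that of the library labelled Trf1+/+ replicate 1, where the tubule marker sum was 142087 and 3 members were at the floor. Kap alone gave 71943 of that sum, against 5058 of 37304 in Trf1flox/flox replicate 1, so the shares depend on 1 gene to differing degrees.

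Differences between the genotypes were taken on log2(normalized count + 1) and put through limma for all 9966 genes that reached 10 normalized counts in 3 or more libraries, a filter that all 9 members passed. No difference between Trf1flox/flox and Trf1+/+ mice passed the test for any Slc22 gene. At an adjusted p under 0.05, limma called 0 of 9 members and 0 of 9966 genes (0%). At an unadjusted p under 0.05 there were 0 of 9 members, against 454 of all genes (4.56%), and the members' smallest unadjusted p was 0.176 in limma (Slc22a8), with an adjusted p of 0.996 for each of the 9. The log2 difference was above 0 for 7 members and below 0 for 2, Slc22a28 and Slc22a30, and above 0 for 55.9% of all genes tested. Its median was 0.88 over the members and 0.20 over all genes tested. The members' median was 0.75 without the library labelled Trf1+/+ replicate 1, 1.45 without the library labelled Trf1flox/flox replicate 1, where all 9 differences were above 0, and 1.65 without Trf1+/+ replicate 3. All 3 Trf1flox/flox libraries lay above all 3 Trf1+/+ libraries for 2 of 9 members, Slc22a8 and Slc22a12, against 533 of all genes tested (5.35%). This count was 1 after upper quartile scaling, where Slc22a8 overlapped, against 6.25% of all genes. It was 4 without Trf1flox/flox replicate 2, with Slc22a5 and Slc22a7 added, against 9.24% of all genes under that smaller number of libraries. The reverse order was seen for 0 of 9, against 332 of all genes (3.33%). DESeq2 on the recovered reads called 58 genes, none of them a member, and edgeR called none, with 410 and 196 genes at an unadjusted p under 0.05.

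**Figure D2:**
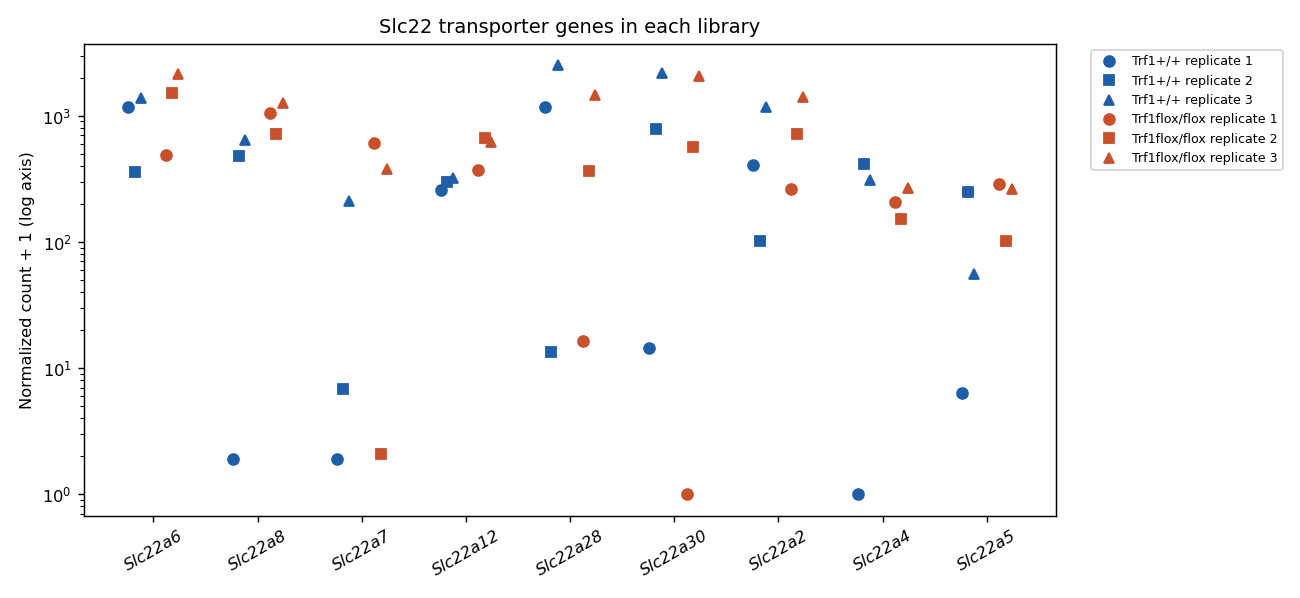
Normalized counts plus 1 (log axis) of the 9 Slc22 genes in each library, blue for Trf1+/+ and orange for Trf1flox/flox, with a symbol for each replicate number, which pairs no mice. Only Slc22a8 and Slc22a12 have all 3 Trf1flox/flox points above all 3 Trf1+/+ points, and libraries at or near 0 set the lower end of the span of Slc22a4, Slc22a7, Slc22a8 and Slc22a30.

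Slc22a6 (ENSMUSG00000024650, chromosome 19, 8618039 to 8628299, plus strand of GRCm38) encodes OAT1, the basolateral exchanger for para-aminohippurate and many anionic drugs. It had 1169, 355 and 1369 normalized counts in Trf1+/+ replicates 1, 2 and 3 and 491, 1516 and 2155 in Trf1flox/flox replicates 1, 2 and 3, the order in which values are given from here on. The lowest library was Trf1+/+ replicate 2, Trf1flox/flox replicate 1 was the next, and the genotypes overlapped. The means were 964 ± 537 and 1387 ± 839.5 normalized counts (SD, n = 3), and the log2 difference in limma was 0.50 (standard error 1.01, 95% interval -1.97 to 2.96). Without Trf1+/+ replicate 2 the difference was -0.11, and without Trf1flox/flox replicate 1 it was 1.12.

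Slc22a8 (ENSMUSG00000063796, chromosome 19, 8591254 to 8611835, plus strand) encodes OAT3, the second main basolateral anion exchanger, with a wider range of substrates than OAT1. It had 0.891, 477 and 636 normalized counts across the Trf1+/+ libraries and 1049, 710 and 1264 across the Trf1flox/flox libraries. The 3 Trf1flox/flox libraries lay above the 3 Trf1+/+ libraries, and the library labelled Trf1+/+ replicate 1 stood far below the rest with 1 read. The means were 371 ± 330.4 and 1008 ± 279 normalized counts (SD, n = 3). The log2 difference of 3.56 (standard error 2.33, 95% interval -2.11 to 9.23) was the largest of the 9 in limma. It fell to 0.83 (standard error 0.73) without the library labelled Trf1+/+ replicate 1. The largest difference among the members therefore rested mostly on 1 library.

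Slc22a7 (ENSMUSG00000067144, chromosome 17, 46432183 to 46438457, minus strand) encodes OAT2, a carrier of anions and nucleotides such as cGMP. It had 0.891, 5.80 and 210 normalized counts across the Trf1+/+ libraries and 604, 1.09 and 376 across the Trf1flox/flox libraries. Within each genotype some libraries were near 0 and others at or above 210, so the genotypes overlapped. The library labelled Trf1+/+ replicate 1 and Trf1flox/flox replicate 2, each with 1 read, also had the fewest genes above 0. These numbered 8967 and 9733, against 10937 to 11593 in the others, among them Trf1+/+ replicate 2. The log2 difference in limma was 2.49 (standard error 2.77, 95% interval -4.26 to 9.23). It was 1.01 without Trf1flox/flox replicate 1, 1.04 without the library labelled Trf1+/+ replicate 1 and 5.10 without Trf1flox/flox replicate 2.

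Slc22a12 (ENSMUSG00000061742, chromosome 19, 6535845 to 6543032, minus strand) encodes URAT1, the apical exchanger that reabsorbs urate. It had 255, 296 and 321 normalized counts across the Trf1+/+ libraries and 369, 664 and 622 across the Trf1flox/flox libraries. These were the most even values among the members, with a within-genotype SD of 0.35 on the log2 scale against 1.09 to 4.97 for the other 8, and the genotypes did not overlap. The means were 291 ± 33.5 and 552 ± 160 normalized counts (SD, n = 3). The log2 difference in limma was 0.88 (standard error 0.75, 95% interval -0.94 to 2.71, adjusted p = 0.996), and it stayed between 0.72 and 1.15 with any 1 library left out. In limma the standard error of Slc22a12 also draws on the spread of all genes tested, whose median SD was 2.17, against its own 0.35. Of its 2263 exonic bases, 682 (30.1%) overlap exons of Nrxn2 on the opposite strand. The libraries do not keep the strand, so reads in that stretch cannot be told apart, and Nrxn2 was not analysed here.

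**Figure D3:**
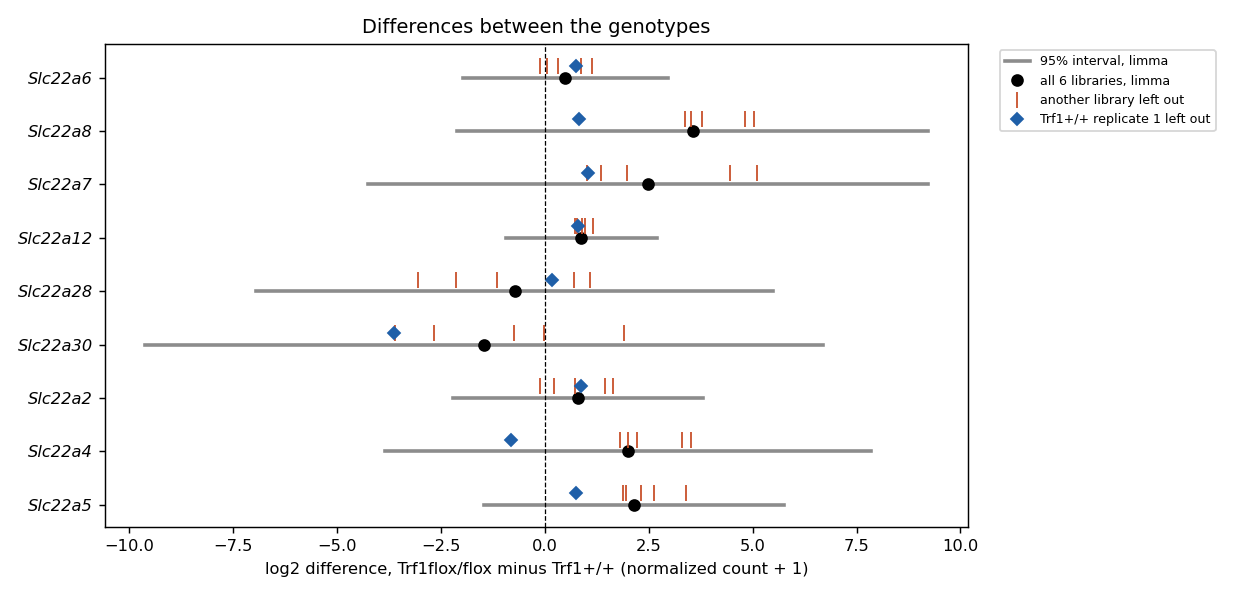
log2 differences (Trf1flox/flox minus Trf1+/+) of the 9 Slc22 genes from limma, as black points with grey 95% intervals, above which the values with 1 library left out are marked. Every interval spans 0, and leaving out the library labelled Trf1+/+ replicate 1 (blue diamonds) takes Slc22a8 from 3.56 to 0.83 and Slc22a4 from 2.0 to -0.82.

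Slc22a28 and Slc22a30 belong to a rodent cluster of anion transporter genes on chromosome 19 whose substrates are less well known. Slc22a28 (ENSMUSG00000063590, 8062209 to 8131982, minus strand) had 1178, 12.4 and 2504 normalized counts across the Trf1+/+ libraries and 15.5, 365 and 1450 across the Trf1flox/flox libraries. Slc22a30 (ENSMUSG00000052562, 8335371 to 8405111, minus strand) had 13.4, 782 and 2169 normalized counts across the Trf1+/+ libraries and 0, 562 and 2068 across the Trf1flox/flox libraries. Both genes were low in Trf1flox/flox replicate 1 and high in replicate 3 of either genotype, and both overlapped between the genotypes. In the other Trf1+/+ libraries they parted. The library labelled Trf1+/+ replicate 1 held 1323 reads of Slc22a28 and 15 of Slc22a30, and Trf1+/+ replicate 2 held 15 and 944. Per kilobase of exon, the level of Slc22a28 was 148 times that of Slc22a30 in the former, 0.0267 times in the latter and 1.09 to 1.94 times in Trf1+/+ replicate 3 and Trf1flox/flox replicates 2 and 3. The pair with near-identical promoters differed in opposite directions in these 2 libraries.

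Transcripts of this pair also share sequence, so part of their reads may have been split or dropped in counting. Of the 50-base windows of Slc22a28 transcripts, 53.9% occur in transcripts of another gene, most of them of Slc22a30, and of those of Slc22a30 34.3% do. The log2 differences in limma were -0.73 for Slc22a28 (standard error 2.55, 95% interval -6.94 to 5.48) and -1.46 for Slc22a30 (standard error 3.35, 95% interval -9.63 to 6.70). Without Trf1flox/flox replicate 1 they were 1.10 and 1.90, above 0 for both. For Slc22a28 the difference was also above 0 without the library labelled Trf1+/+ replicate 1 (0.17) and without Trf1+/+ replicate 3 (0.71). That of Slc22a30 was -3.63 without the library labelled Trf1+/+ replicate 1.

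Slc22a2 (ENSMUSG00000040966, chromosome 17, 12584132 to 12628488, plus strand) encodes OCT2, the basolateral carrier through which creatinine and metformin enter proximal tubule cells. It had 408, 101 and 1181 normalized counts across the Trf1+/+ libraries and 259, 710 and 1413 across the Trf1flox/flox libraries. The order of the libraries was close to that of Slc22a6, with Trf1+/+ replicate 2 lowest and Trf1flox/flox replicate 3 highest, and the genotypes overlapped. The log2 difference in limma was 0.80 (standard error 1.23, 95% interval -2.20 to 3.80), and it was -0.12 without Trf1+/+ replicate 2, 1.45 without Trf1flox/flox replicate 1 and 1.65 without Trf1+/+ replicate 3.

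Slc22a4 and Slc22a5 lie near each other on the minus strand of chromosome 11. They encode OCTN1, a carrier of ergothioneine, and OCTN2, the sodium-dependent carnitine transporter that recovers carnitine from the filtrate. Slc22a4 (ENSMUSG00000020334, 53983123 to 54028090) had 0, 416 and 307 normalized counts across the Trf1+/+ libraries and 204, 150 and 267 across the Trf1flox/flox libraries. Its 3 Trf1flox/flox values lay between the 0 of the library labelled Trf1+/+ replicate 1 and the other Trf1+/+ values. The log2 difference in limma was 2.0 (standard error 2.40, 95% interval -3.85 to 7.86), although the mean normalized count was lower in Trf1flox/flox (207 ± 58.9, SD, n = 3) than in Trf1+/+ libraries (241 ± 216, SD, n = 3). Its sign rested on 1 library and on the log scale. The difference was -0.82 (standard error 0.73) without the library labelled Trf1+/+ replicate 1, and edgeR and DESeq2 on the recovered reads gave -0.25 and -0.22.

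Slc22a5 (ENSMUSG00000018900, 53864542 to 53891660) had 5.34, 247 and 54.2 normalized counts across the Trf1+/+ libraries and 284, 101 and 260 across the Trf1flox/flox libraries. Trf1+/+ replicate 2 lay above Trf1flox/flox replicate 2, so the genotypes overlapped. The log2 difference in limma was 2.15 (standard error 1.48, 95% interval -1.46 to 5.75) and became 0.75 once the library labelled Trf1+/+ replicate 1 was left out and 3.39 (standard error 1.33, adjusted p = 0.878 in limma) once Trf1+/+ replicate 2 was. Of the 50-base windows of its transcripts, 26.3% also occur in another gene, mostly Slc22a21, a further OCTN gene. Slc22a21 was looked for and was not among the genes listed.

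To compare levels between genes, normalized counts were divided by exon length in kilobases. By the median over the 6 libraries, Slc22a28 (385 normalized counts per kilobase), Slc22a6 (319) and Slc22a2 (225) came first. Slc22a30 (200), Slc22a8 (172) and Slc22a12 (152) followed, and Slc22a4 (92.4), Slc22a5 (56.6) and Slc22a7 (51.3) came last. Neighbours in this order did not differ beyond their spread. The levels of Slc22a28 per kilobase ran from 6.20 to 1249, those of Slc22a7 from 0.424 to 287 and those of Slc22a6 from 89.0 to 541. Among all listed genes with a length, Slc22a6 stood at the 73.5th to 93.6th percentile per kilobase and Slc22a12 at the 73.2nd to 89.4th, while Slc22a30 ranged from the 4.77th to the 95.2nd.

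The share of each gene in the members' sum therefore changed from library to library within a genotype, and each mouse gave 1 library. Slc22a6 made up 13.2% to 38.6% of that sum and was above 10% in all 6 libraries. Slc22a7 made up 18.4% in Trf1flox/flox replicate 1 and at most 3.80% in the other 5 libraries. The within-genotype SD on the log2 scale had a median of 3.36 over the members, against 2.17 over all genes tested.

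**Figure D4:**
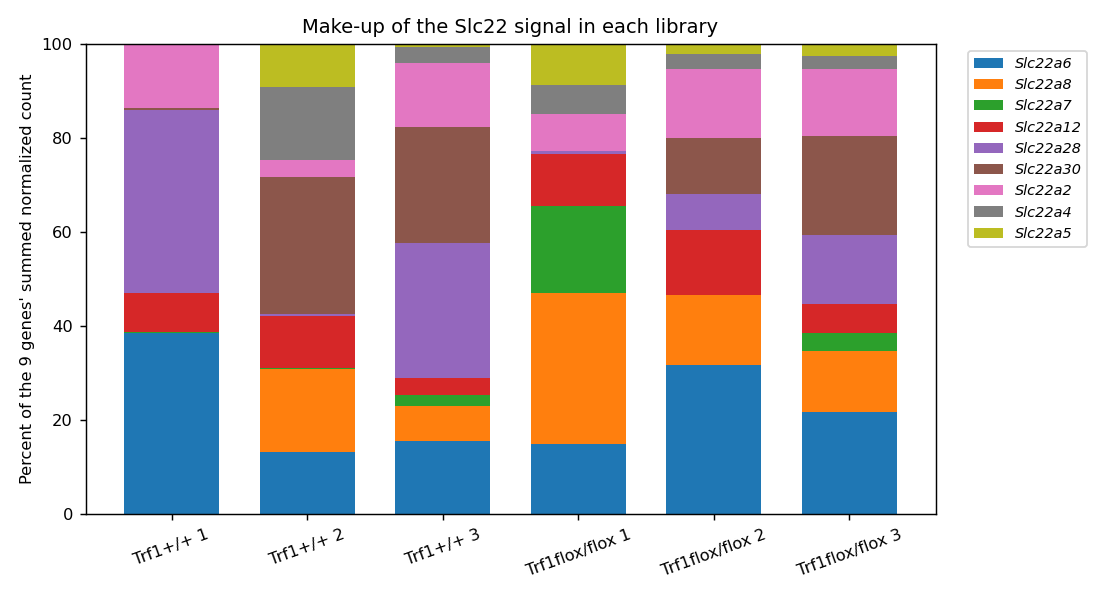
Percent of the summed normalized counts of the 9 Slc22 genes taken by each gene in each library, as stacked bars from 0 to 100. Slc22a6 (bottom) holds 13.2% to 38.6% in every library, whereas the shares of Slc22a28, Slc22a30, Slc22a7 and Slc22a8 change widely between libraries of 1 genotype.

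Likeness between genes was taken as the root mean square difference of their log2 profiles over the 6 libraries, each profile centred on its own mean, so that 0 means the same pattern. Among members, Slc22a2 and Slc22a6 were the closest pair (0.53 on the log2 scale), followed by Slc22a6 and Slc22a12 (0.77) and by Slc22a4 and Slc22a8 (0.82). Slc22a7 and Slc22a30 were the farthest apart (5.61). Among all genes tested, the nearest to Slc22a6 was Miox, which encodes the proximal tubule enzyme myo-inositol oxygenase (0.19), followed by Them7 and Calml4. The nearest to Slc22a12 were Rbis (0.18), Asb9 and Fh1, the mitochondrial fumarase. Slc22a2 was nearest to Tbc1d12 (0.31), Errfi1 and Polr3e, and Slc22a4 to Wdr26 (0.19), Rbm7 and Scamp3. Slc22a5 was nearest to Vps16 (0.30), Rab5c and Siva1, Slc22a7 to Tpcn1 (0.37), Mfap3 and Kat7, and Slc22a8 to Trps1 (0.35), Ebna1bp2 and Mcfd2. For Slc22a28 the nearest genes were less alike, Tstd1 (0.72), Usp12 and Rbsn. Slc22a30 was nearest to Slco1a1 (0.73), which encodes an organic anion transporting polypeptide, then to Fmo5 and Cyp2j13. Slco1a1 had 4.45, 205 and 457 normalized counts across the Trf1+/+ libraries and 0, 303 and 1033 across the Trf1flox/flox libraries, low in the same libraries as Slc22a30. These likenesses over 6 libraries are a description only.

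Slc22a7 and Slc22a30 were the members that parted most in Trf1flox/flox replicate 1. The sex-linked genes were therefore read, a list chosen after the values were seen, since the labels used here give the sexes of the study but not of each mouse. Xist, the RNA that silences an X chromosome in females, had 0, 0.829 and 0.985 normalized counts across the Trf1+/+ libraries and 1565, 55.7 and 0 across the Trf1flox/flox libraries. Ddx3y, a gene of the Y chromosome, had 997, 602 and 781 normalized counts across the Trf1+/+ libraries and 0, 116 and 291 across the Trf1flox/flox libraries. Eif2s3y, also on the Y chromosome, had 942, 1060 and 1376 and then 0.859, 1138 and 397. Trf1flox/flox replicate 1 alone was high in Xist and at or near 0 in Ddx3y and Eif2s3y. Uty, the Y-linked gene of this list with an unadjusted p under 0.05 in limma (unadjusted p = 0.0313 and adjusted p = 0.968, log2 difference -3.61), had 52.6, 159 and 321 and then 2.58, 7.65 and 48.2 normalized counts. Kdm5d, the other Y-linked gene, had 0.891, 4.14 and 161 and then 4.30, 2.19 and 214. Uty was thus low in Trf1flox/flox replicate 2 as well, and Kdm5d was low in 4 libraries and did not mark out Trf1flox/flox replicate 1. Slc22a19, a family gene outside the members that was singled out after its values were seen, had 1.78, 6.63 and 79.8 normalized counts across the Trf1+/+ libraries and 1181, 3.28 and 121 across the Trf1flox/flox libraries. Like Slc22a7 it was highest in Trf1flox/flox replicate 1, where Slc22a30 had no read. The part of sex in the members' differences between the genotypes was not tested.

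**Figure D5:**
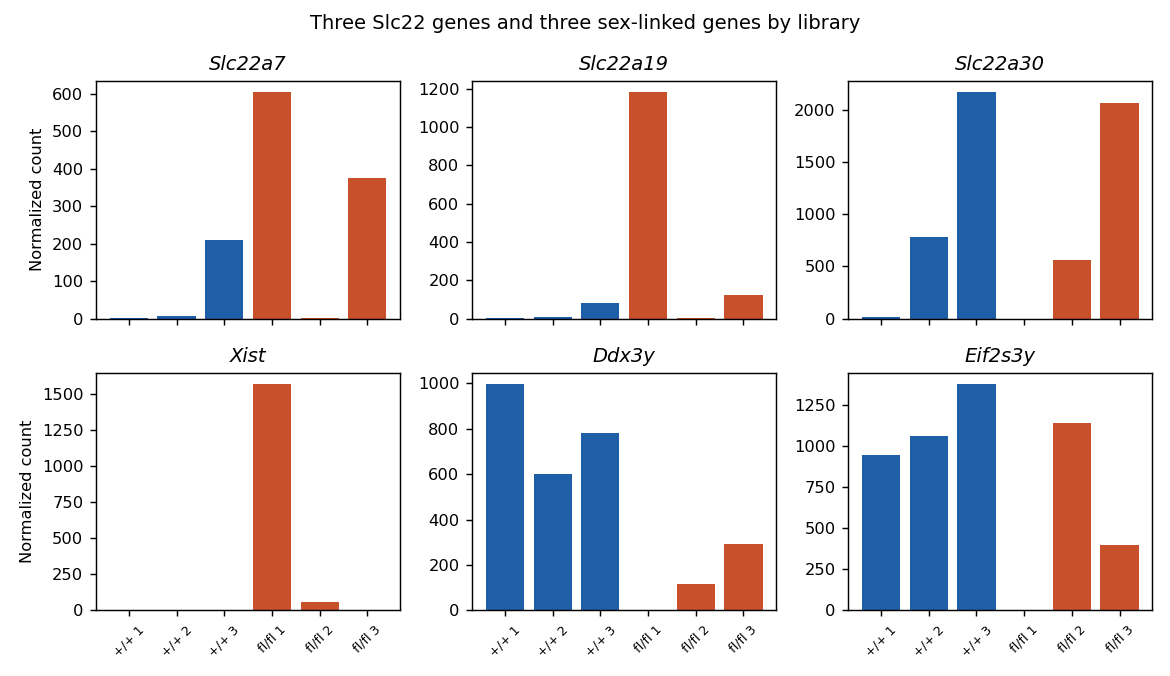
Normalized counts of Slc22a7, Slc22a19 and Slc22a30 (top) and of Xist, Ddx3y and Eif2s3y (bottom) in each library, as bars from 0 with a scale per gene, blue for Trf1+/+ and orange for Trf1flox/flox (fl/fl). In Trf1flox/flox replicate 1, Slc22a7, Slc22a19 and Xist are at their highest, whereas Slc22a30 and Ddx3y are at 0.

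Other genes of the same transport routes were read from lists of known partners, and limma called 0 genes of each list, with 0 at an unadjusted p under 0.05. Of 16 other Slc22 family genes 9 were listed and 7 tested, 5 with a log2 difference above 0 and 2 below, at a median of 0.84. The most abundant was Slc22a18, at 820, 529 and 1764 normalized counts in the Trf1+/+ libraries against 488, 1608 and 2587 in the Trf1flox/flox libraries, which overlapped. The partners of organic anion secretion include the dicarboxylate carriers that feed OAT1 and OAT3 and the apical efflux pumps. Of these, 11 of 14 were listed and tested, 9 with a difference above 0 and 2 below, at a median of 0.93. The most abundant was Slc17a3, an apical anion and urate efflux carrier, with 1113, 776 and 1778 normalized counts across the Trf1+/+ libraries and 757, 2541 and 2906 across the Trf1flox/flox libraries.

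Of 8 partners of organic cation transport 5 were listed and 4 tested, 3 with a difference above 0 and 1 below. Slc47a1, which encodes the apical efflux carrier MATE1, was the most abundant, with 905, 133 and 1814 normalized counts across the Trf1+/+ libraries and 1300.0, 1652 and 1265 across the Trf1flox/flox libraries. Slc44a1, a choline transporter named after its values were seen, had 0, 17.4 and 201 and then 273, 632 and 223 normalized counts. Its genotypes did not overlap, and it was the 1 gene of these partner lists of which this holds (log2 difference 4.45, standard error 1.96, unadjusted p = 0.0627 and adjusted p = 0.996 in limma). Over all genes tested, 533 (5.35%) had their Trf1flox/flox libraries above their Trf1+/+ libraries without overlap.

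Of 11 genes of urate handling 9 were tested, 8 with a difference above 0 and 1 below, at a median of 0.98. The 1 below was Pdzk1, a scaffold that holds URAT1 and other apical carriers, with 3907, 1354 and 3887 normalized counts across the Trf1+/+ libraries and 1799, 3341 and 1575 across the Trf1flox/flox libraries. Of 14 genes of the carnitine pathway 10 were tested, 7 above 0 and 3 below, at a median of 0.47. The most abundant was Cpt1a, the carnitine palmitoyltransferase that commits fatty acids to mitochondrial import, with 3394, 2018 and 1183 and then 1966, 1673 and 1440 normalized counts. Of 17 transcription factors and scaffolds known for these genes 13 were tested, 9 above 0 and 4 below, at a median of 0.68. The 17 proximal tubule markers, 13 above 0 and 4 below, had a median of 0.87, beside the 0.88 of the members. The 6 markers of the loop and distal tubule went the other way, with 2 above 0 and 4 below, at a median of -0.51. Of these, 2 (Slc12a3 and Calb1) were lower in all 3 Trf1flox/flox than in all 3 Trf1+/+ libraries, against 332 of all genes tested (3.33%). No gene of these lists passed the test, and the part of tubule cell content in these differences was not tested.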

How the data were processed

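RNA of 500 FACS-sorted kidney cells per mouse was primed with oligo(dT) for reverse transcription with a template switch, then amplified and sequenced from unstranded libraries. The submitters' processing notes name FastQC 0.11.7, TopHat2 2.0.10, Bowtie 1.0.0, SAMtools 0.1.19, HTSeq 0.6.1 and DESeq2, and the build GRCm39, whereas the study's methods name GRCm38. The deposited values, of the unit signal, are normalized counts per gene in which the authors divided the reads by 1 size factor per library. All values (100%, within 0.01 read) were whole multiples of 1 read, so reads were recovered. Genes reaching 10 normalized counts in 3 or more libraries were tested on log2(normalized count + 1) with limma 3.58.1 in R 4.3.3 (two-sided, equal weights, no trend), and p-values were adjusted over all 9966 genes by the Benjamini-Hochberg method. A 95% interval is limma's. These p-values set the difference between the genotypes against the spread between mice within a genotype, 3 and 3. For each gene, limma draws the variance toward a value shared by all 9966 genes. edgeR 4.0.16 and DESeq2 1.42.0 ran on the recovered reads. The fits were tested on simulated data. Positions and exon lengths came from GENCODE vM21 on GRCm38 (98.0% of symbols matched), and promoters from RefSeq. The named genes were the members, the gene of each list with the highest mean, any list gene with an unadjusted p under 0.05, and the 3 nearest profiles. The members and lists were chosen with earlier results of these data known. The reads on genes outside the table were not used here. Of the other cell type lists, the 7 segment S3 markers (6 listed and tested, 4 above 0 and 2 below) gave no called gene. Nor did the 6 of collecting duct (6 listed, 5 tested) and the 9 of immune cells (3 listed, 1 tested). The 7 of endothelium (2 listed) and 5 of podocytes (0 listed) had 0 genes tested, so none could be called. The most abundant genes of these lists were Napsa (257 to 6900 normalized counts), Aqp2 (0 to 16844), Ehd3 (0 to 295) and Cd74 (0 to 2513). A further fibroblast marker is not reported here.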

Additional observations from a re-analysis of the deposited data

How the results depend on the processing

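Over 16 alternatives (pseudocount, filter, scaling, trend, library weights, edgeR, DESeq2 and each library left out), 134 of 144 member values kept the sign of their difference and 10 changed it. The filter and trend alternatives leave each difference as it was, so they could not change a sign. Slc22a5, Slc22a7, Slc22a8 and Slc22a12 kept their sign in all 16. No member was called in any of them, and the adjusted p of the members ran from 0.743 to 1.000. At an unadjusted p under 0.05, limma gave 1 member (Slc22a5) without Trf1+/+ replicate 2, beside 564 of 9966 genes. The other alternatives gave 0 members. Slc22a28 had a difference of 1.10 with library weights, 0.17 without Trf1+/+ replicate 1, 0.71 without Trf1+/+ replicate 3 and 1.10 without Trf1flox/flox replicate 1. Slc22a4 had -0.25 with edgeR, -0.22 with DESeq2 and -0.82 without Trf1+/+ replicate 1. Slc22a2 and Slc22a6 had -0.12 and -0.11 without Trf1+/+ replicate 2, and Slc22a30 had 1.90 without Trf1flox/flox replicate 1. With a library left out, the difference ran from -0.82 to 3.53 for Slc22a4, from -0.12 to 1.65 for Slc22a2, from -0.11 to 1.12 for Slc22a6, from -3.06 to 1.10 for Slc22a28 and from -3.63 to 1.90 for Slc22a30. The genes called over the whole table numbered 58 with DESeq2, 46 of them higher, and 0 in every other alternative. The members whose genotypes did not overlap numbered 1 under upper quartile scaling (8.76% of all genes in either direction) and 2 to 4 with a library left out (15.2% to 24.4% of all genes), the highest without Trf1flox/flox replicate 2 (15.2%). The causes were not tested. The members' median lay between 0.73 and 1.65 with a library left out, and the median of all genes was 0.38 under upper quartile scaling and -0.03 without Trf1+/+ replicate 1. With 3 mice per genotype and within-genotype SDs of up to 4.97 on the log2 scale, most intervals leave differences of several log2 units undetected. They do not reach equally far in both directions, with -1.46 to 5.75 for Slc22a5 and -0.94 to 2.71 for Slc22a12.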
